A study of Mus musculus with 13 samples.

Results

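Superoxide dismutases, catalase and peroxidases remove superoxide and peroxides, and their transcripts were compared between livers of male wild-type C57BL/6N mice given streptozotocin (STZ) and livers of mock-injected controls. The 10 genes Sod1, Sod2, Sod3, Cat, Gpx1, Gpx3, Gpx4, Prdx1, Prdx3 and Prdx5 were chosen by name. A gene was read from the probe set that the platform annotation assigns to that gene alone, and from the brightest such probe set where there was more than 1. This gave values for 9 of the 10 genes, out of 19938 named genes in all. Prdx5 was not analysed here. The STZ group held 6 mice, which received STZ intraperitoneally at 65 mg/kg on 5 consecutive days when they were 10 to 16 weeks old. The control group held 7 mice, which were mock-injected with citrate buffer. The mice were killed 9 to 11 weeks after the injections, when they were 5 to 6 months old, and total liver RNA of each mouse was hybridised to 1 Affymetrix mouse gene array. The series design text describes the controls by a standard diet and does not mention the injection. STZ is an alkylating glucose analogue that kills the insulin-producing beta cells. It enters cells through the glucose transporter GLUT2, which hepatocytes carry as well, so effects of the drug and of insulin lack cannot be told apart in this design. No glucose or insulin measurement was used here.

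Superoxide arises mainly where electrons leak from the respiratory chain and in enzymes such as the NADPH oxidases. Superoxide dismutases convert it to oxygen and hydrogen peroxide, with Sod1 (copper and zinc) in the cytosol and the mitochondrial intermembrane space, Sod2 (manganese) in the mitochondrial matrix and Sod3 (copper and zinc) outside the cell. Hydrogen peroxide is then removed by catalase in peroxisomes, by glutathione peroxidases at the expense of glutathione, and by peroxiredoxins at the expense of thioredoxin. Liver is rich in catalase because its peroxisomes make hydrogen peroxide when they oxidise fatty acids and glycolate.

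In STZ livers, Gpx3, which encodes the secreted glutathione peroxidase of plasma, was higher by 0.89 ± 0.17 on the log2 scale (STZ minus control ± SE of the fit), or 1.85-fold. Sod3, the extracellular dismutase, was higher by 0.31 ± 0.09, or 1.24-fold, and Sod1 was lower by 0.18 on the log2 scale (-0.18 ± 0.05, or 0.883-fold). In limma these 3 genes had adjusted p of 0.00331 (Gpx3), 0.0421 (Sod3) and 0.0195 (Sod1), under the threshold of 0.05. The other 6 measured genes, Sod2, Cat, Gpx1, Gpx4, Prdx1 and Prdx3, did not pass. Thus 2 of 9 were higher and 1 of 9 was lower, where 5.09% of all 19938 genes were higher and 4.04% were lower. All 9 were brighter than the median gene, and the share of passing genes among bright genes was not counted in this fit. Fitted on genes brighter than the median gene alone, 1857 genes passed, against 1819 in the fit of all genes. The former is a separate fit that adjusts over fewer genes. The shares over all genes can thus understate those of bright genes. At an unadjusted p under 0.05 there were 6 of the 9 genes and 4156 of all genes. The median difference was 0.09 over the 9 genes and -0.01 over all genes. With 9 genes, these shares are a description and were not tested against the rest.

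**Figure D1:**
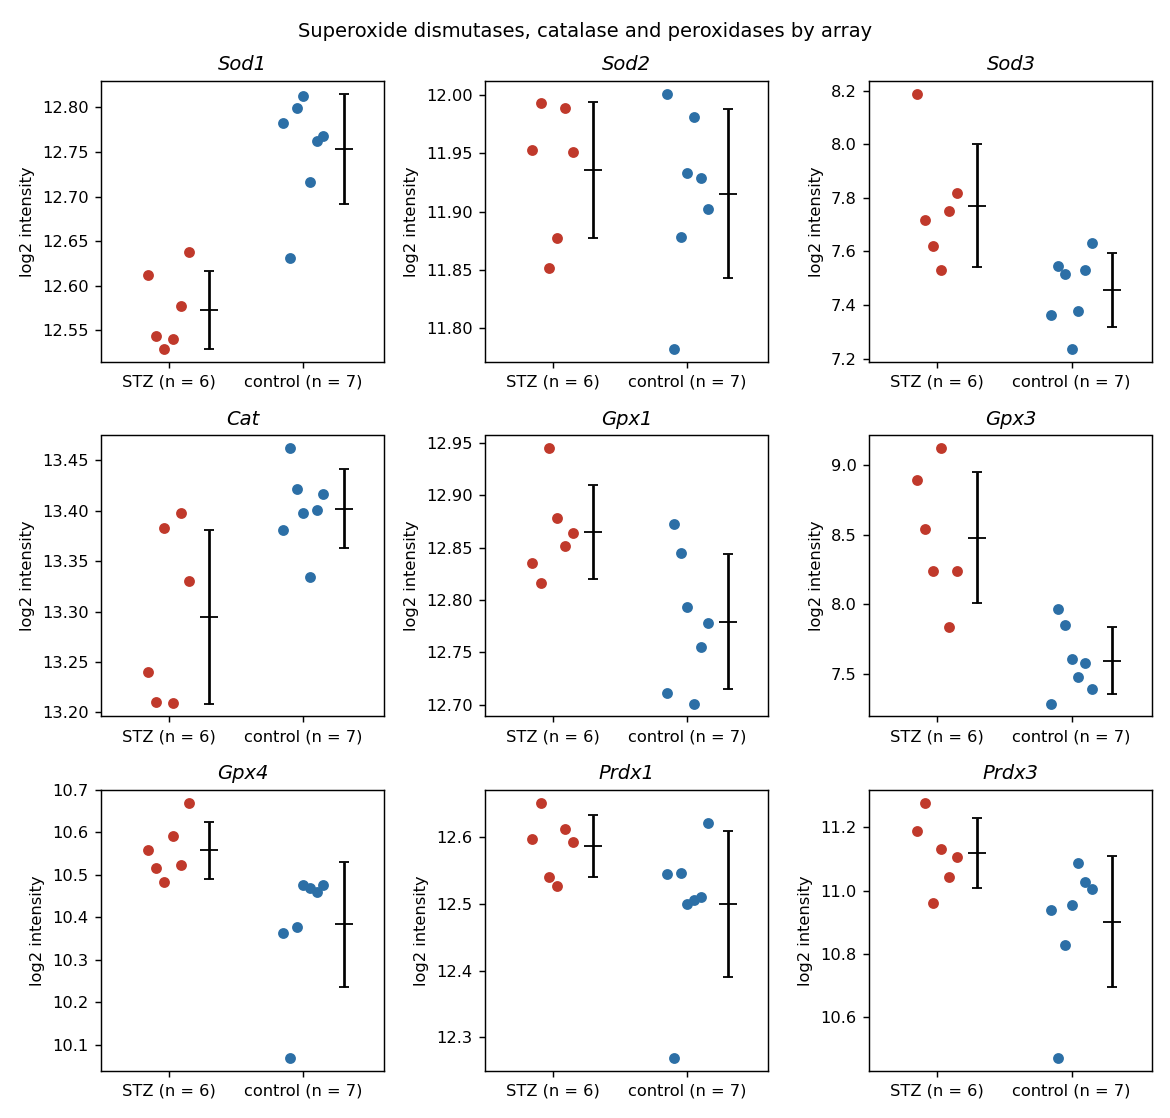
Log2 intensity of the 9 measured genes, 1 panel a gene, each with its own vertical scale that does not start at 0. Points are arrays (6 STZ, 7 control), and the bar beside each group is the mean ± SD. Gpx4 was the gene with no overlap, and the control point at 10.07 in its panel is control replicate 2.

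The deposited values are log2 intensities on which a difference of 1 is a doubling of signal. The arrays were scaled to a common distribution, so a change in the total RNA of a cell would not be seen. In bulk liver, fewer cells of a type and less RNA per cell cannot be told apart. Array medians lay within 0.09 of each other, and correlations across genes were 0.986 to 0.995 between STZ arrays and 0.993 to 0.997 between control arrays. All 9 genes were brighter than the median gene. Liver identity was checked with 5 hepatocyte markers (Alb, Ttr, Apoa1, Hnf4a and Asgr1). Their mean level was 12.71 to 12.74 in STZ arrays and 12.75 to 12.82 in control arrays, so all 6 STZ arrays had a lower mean than any control. Apoa1 (-0.23 ± 0.06, adjusted p = 0.0158 in limma) and Ttr (-0.18 ± 0.05, adjusted p = 0.0402) were lower, and the other 3 markers did not pass.

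RefSeq promoter windows are shown for Gpx3 and Sod1, which passed in opposite directions. Each line holds the 250 bases before the transcription start, 5′ to 3′ on the plus strand of GRCm38.p6, at chr11:54902604-54902853 for Gpx3 and chr16:90220512-90220761 for Sod1. Capitals mark matches, on either strand, to TGACNNNGC (the core of the antioxidant response element bound by NRF2), GGGCGG (the GC box bound by Sp1), TATAAA (the TATA box) and CCAAT.
Gpx3: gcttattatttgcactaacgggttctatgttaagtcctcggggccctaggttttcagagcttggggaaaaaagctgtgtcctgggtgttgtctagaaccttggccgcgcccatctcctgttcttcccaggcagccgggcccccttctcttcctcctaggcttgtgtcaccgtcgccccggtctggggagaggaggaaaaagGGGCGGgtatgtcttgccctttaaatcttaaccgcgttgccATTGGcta
Sod1: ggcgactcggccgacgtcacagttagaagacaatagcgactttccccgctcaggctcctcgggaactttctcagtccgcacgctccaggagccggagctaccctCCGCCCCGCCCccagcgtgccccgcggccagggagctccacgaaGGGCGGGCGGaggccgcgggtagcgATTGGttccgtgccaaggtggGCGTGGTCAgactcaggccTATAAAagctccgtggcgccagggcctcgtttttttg

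The Sod1 window held a TATA box 37 to 32 bases before the start, 1 match to the antioxidant response element core on the minus strand 56 to 48 bases before it, 1 CCAAT box and 4 GC boxes, which overlap in pairs. The Gpx3 window held 1 GC box and 1 CCAAT box, and neither a TATAAA nor a TGACNNNGC match. Of all 32851 windows of the same length, 10.2% held TGACNNNGC, 32.7% GGGCGG, 12.4% TATAAA and 33.8% CCAAT. Among the 12 windows of the listed genes (9 genes with a window, Prdx5 among them), TGACNNNGC occurred in the windows of Sod1 and Prdx1. GGGCGG occurred in 10 of the 12. Several of these windows belong to Gpx4, and some of those overlap, so the 12 are not independent. Sod3 had no window. A match describes these letters only and says nothing about binding of a factor.

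Among the dismutases, Sod1 values in STZ livers had a lowest of 12.53, a median of 12.56 and a highest of 12.64, against 12.63, 12.77 and 12.81 in control livers. The groups overlapped at a single pair of arrays, STZ replicate 6 (12.64) and control replicate 2 (12.63), and 5 of 6 STZ arrays lay below all 7 controls. Sod1 averaged 12.57 ± 0.04 (SD, n = 6) in STZ livers and 12.75 ± 0.06 (SD, n = 7) in control livers. The 95% confidence interval of the difference ran from -0.28 to -0.08. The difference of the means was larger than the SD of either group. With any single array omitted, Sod1 still passed, at adjusted p of 0.0102 to 0.0435 in limma. Alas2, the heme synthesis enzyme of red cell precursors, was also lower in STZ livers (-1.58 ± 0.26, adjusted p = 0.000807 in limma), and red cells are rich in Sod1 and catalase protein. Only 2 of the 6 red cell markers were measured, and their mean level was 7.39 to 8.43 in STZ arrays and 8.56 to 8.87 in control arrays. Slc4a1, the anion exchanger of red cells, was -0.05 ± 0.08 and did not pass. The part of red cell RNA in the Sod1 difference was not tested.

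Sod2, the manganese enzyme of mitochondria, had a lowest of 11.85, a median of 11.95 and a highest of 11.99 in STZ livers, against 11.78, 11.93 and 12.001 in control livers. All 6 STZ values lay inside the control range. The difference was 0.02 ± 0.05 with a 95% interval of -0.08 to 0.12. Its adjusted p was 0.880 in limma. Of the 3 dismutase transcripts, the cytosolic one passed as lower, the matrix one did not pass, and the extracellular one passed as higher. The 3 were not tested against each other. The Sod3 call depended on single arrays, as given below. Sod1 did not pass with the array numbers as a replicate block (adjusted p = 0.0923 in limma).

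Sod3 values in STZ livers had a lowest of 7.53, a median of 7.73 and a highest of 8.19, against 7.24, 7.52 and 7.63 in control livers. STZ replicate 1 was the highest, 4 of 6 STZ arrays lay above all controls, and STZ replicates 3 and 4 lay inside the control range. Sod3 averaged 7.77 ± 0.23 (SD, n = 6) in STZ livers and 7.46 ± 0.14 (SD, n = 7) in control livers. The 95% interval was 0.12 to 0.51. When each array was omitted in turn, Sod3 failed the threshold in 10 of the 13 fits. Over these 13 fits the difference was 0.23 to 0.36 and the adjusted p in limma 0.0264 to 0.0857. Without STZ replicate 1 the difference was 0.23 with an adjusted p of 0.0740. The direction was up in all 23 alternative fits, and its side of the threshold depended on single arrays.

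Catalase, the peroxisomal enzyme that splits hydrogen peroxide into water and oxygen, had a lowest of 13.21, a median of 13.29 and a highest of 13.40 in STZ livers, against 13.33, 13.40 and 13.46 in control livers. STZ replicates 1, 2, 4 and 6 lay below all controls, and STZ replicates 3 and 5 lay inside the control range. The difference was -0.11 ± 0.05, with an adjusted p of 0.215 in limma, and did not pass. Its 95% interval, -0.21 to -0.00429, is not adjusted for the number of genes. The brightest value of any probe set was 14.14, and arrays compress differences of very bright probe sets, so a difference of Cat signal can understate a difference of RNA. The spread of Cat was 0.09 (SD, n = 6) in STZ livers and 0.04 (SD, n = 7) in control livers.

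The enzymes encoded by Gpx1, Gpx3 and Gpx4 carry selenocysteine in their active site and reduce peroxides with glutathione. Gpx3 values in STZ livers had a lowest of 7.84, a median of 8.39 and a highest of 9.12, against 7.28, 7.57 and 7.96 in control livers. STZ replicate 4 (9.12) and STZ replicate 1 (8.89) were the highest, and 5 of 6 STZ arrays lay above all 7 controls. STZ replicate 5 (7.84) lay inside the control range, below control replicates 2 (7.96) and 3 (7.85). Gpx3 averaged 8.48 ± 0.47 (SD, n = 6) in STZ livers and 7.59 ± 0.24 (SD, n = 7) in control livers. The 95% interval was 0.52 to 1.25. By absolute difference Gpx3 ranked 206 among the 19938 genes. With any single array omitted Gpx3 still passed, with differences of 0.76 to 1.01 and adjusted p of 0.000356 to 0.00967 in limma. In the exact rank-sum test, which uses the order of the arrays alone, Gpx3 did not pass (adjusted p = 0.0628).

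Gpx1, the abundant cytosolic and mitochondrial glutathione peroxidase, had a lowest of 12.82, a median of 12.86 and a highest of 12.95 in STZ livers, against 12.70, 12.78 and 12.87 in control livers. STZ replicates 3 and 4 lay above all controls and the other 4 inside the control range. The difference was 0.09 ± 0.05 (95% interval -0.01 to 0.18, adjusted p = 0.320 in limma). Gpx4, which reduces lipid hydroperoxides within membranes and thereby protects cells from ferroptosis, had a lowest of 10.48, a median of 10.54 and a highest of 10.67 in STZ livers, against 10.07, 10.46 and 10.48 in control livers. All 6 STZ arrays lay above all 7 controls, by a gap of 0.009. Gpx4 was the 1 gene of the 9 whose groups did not overlap. Over all genes the groups did not overlap for 2.30% with STZ higher and for 1.56% with STZ lower.

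The Gpx4 difference was 0.17 ± 0.07 (95% interval 0.03 to 0.31) and did not pass in limma (adjusted p = 0.127). Control replicate 2, at 10.07, was far below the next control at 10.36. The spread was 0.07 (SD, n = 6) in STZ livers and 0.15 (SD, n = 7) in control livers. Without that array the difference was 0.12 with an adjusted p of 0.161. In the exact rank-sum test Gpx4 passed with an adjusted p of 0.0302. That test uses the order of the arrays alone, so its p follows from the lack of overlap and is not a separate result. A dimmer probe set annotated to Gpx4 alone gave 10.29 ± 0.07 (SD, n = 6) in STZ livers and 10.10 ± 0.15 (SD, n = 7) in control livers. Its difference of 0.18 ± 0.07 did not pass in limma either (adjusted p = 0.119 over all probe sets). The direction of Gpx4 was the same in both probe sets. With the mean of all probe sets of a gene, however, its groups overlapped.

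**Figure D2:**
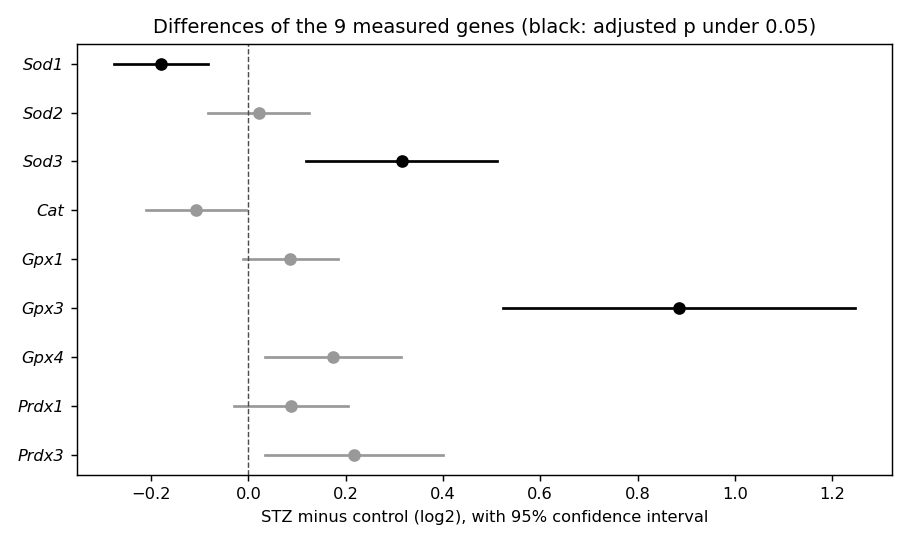
Difference of each gene, STZ minus control on the log2 scale (horizontal axis), with its 95% confidence interval from the limma fit, not adjusted for the number of genes. The 3 black genes passed at an adjusted p under 0.05, with Gpx3 at 0.89, Sod3 at 0.31 and Sod1 at -0.18. The intervals of Sod2, Gpx1 and Prdx1 included 0.

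Among the peroxiredoxins, Prdx3, the thioredoxin-dependent peroxidase of the mitochondrial matrix, had a lowest of 10.96, a median of 11.12 and a highest of 11.28 in STZ livers, against 10.47, 10.96 and 11.09 in control livers. STZ replicates 1, 2, 4 and 6 lay above all controls. The difference was 0.22 ± 0.09 (95% interval 0.03 to 0.40) and did not pass (adjusted p = 0.149 in limma). Without control replicate 2, the lowest array, it was 0.15 with an adjusted p of 0.191. Prdx1, the abundant cytosolic peroxiredoxin, had a lowest of 12.53, a median of 12.60 and a highest of 12.65 in STZ livers, against 12.27, 12.51 and 12.62 in control livers. Its difference was 0.09 ± 0.06 (95% interval -0.03 to 0.20, adjusted p = 0.419 in limma), and 5 of 6 STZ arrays lay inside the control range. A dimmer probe set annotated to Prdx1 alone gave 0.01 ± 0.06, so the probe sets of Prdx1 differed in size and neither passed. Whether both read the same transcripts was not checked.

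Control replicate 2 was the lowest control for 5 of the 9 genes and the highest for 3. No other array was the lowest of its group for more than 4 genes. The spread was larger among STZ arrays for 3 of the 9 genes, Sod3, Cat and Gpx3, and larger among control arrays for 6. Without control replicate 2 the 3 calls among the 9 genes became 2, as Sod3 was then 0.33 with an adjusted p of 0.0513 in limma, while Gpx3 and Sod1 still passed.

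The genes whose values followed Gpx3 most closely were sought over the 13 arrays after the mean of each group was taken off, so that the treatment itself did not count. The 5 highest Pearson correlations were those of Sult1c1 (0.94), Mir365-1 (0.94), Inpp5d (0.91), Rap1gap2 (0.91) and Slc25a27 (0.90). None of these 5 passed in limma (adjusted p = 0.192 to 0.975). For Sod1 they were Fscn1 (0.90), Apof (0.88), Fga (0.87), Snrpd2 (0.87) and Antkmt (0.87), of which none passed (adjusted p = 0.315 to 0.965). These are the highest of all genes over 13 arrays that share their scaling, and they are a description.

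Markers of Kupffer cells, the resident macrophages of liver, were higher in STZ livers, as were Gpx3 and Sod3. Of 8 measured Kupffer and macrophage markers, 4 were higher and 0 lower (Cd5l, Vsig4, Clec4f and Cd68), with a median difference of 0.41. Their mean level was 8.64 to 9.28 in STZ arrays and 8.49 to 8.91 in control arrays, above all controls in 5 of 6 STZ arrays. In STZ replicates 1 to 6 it was 9.28, 9.25, 8.64, 9.23, 8.93 and 9.15. Of 5 monocyte and neutrophil markers 0 passed in limma, with 2 at an unadjusted p under 0.05, and their mean level was 4.96 to 5.18 in STZ arrays and 4.83 to 4.94 in control arrays. Of 6 endothelial markers 1 was higher, Lyve1 (0.50 ± 0.11), and their mean level was 8.94 to 9.12 in STZ arrays and 8.79 to 9.01 in control arrays. The values hold no detection calls, so no marker can be said to be absent. The part of other cell types in the Gpx3 and Sod3 differences was not tested.

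**Figure D3:**
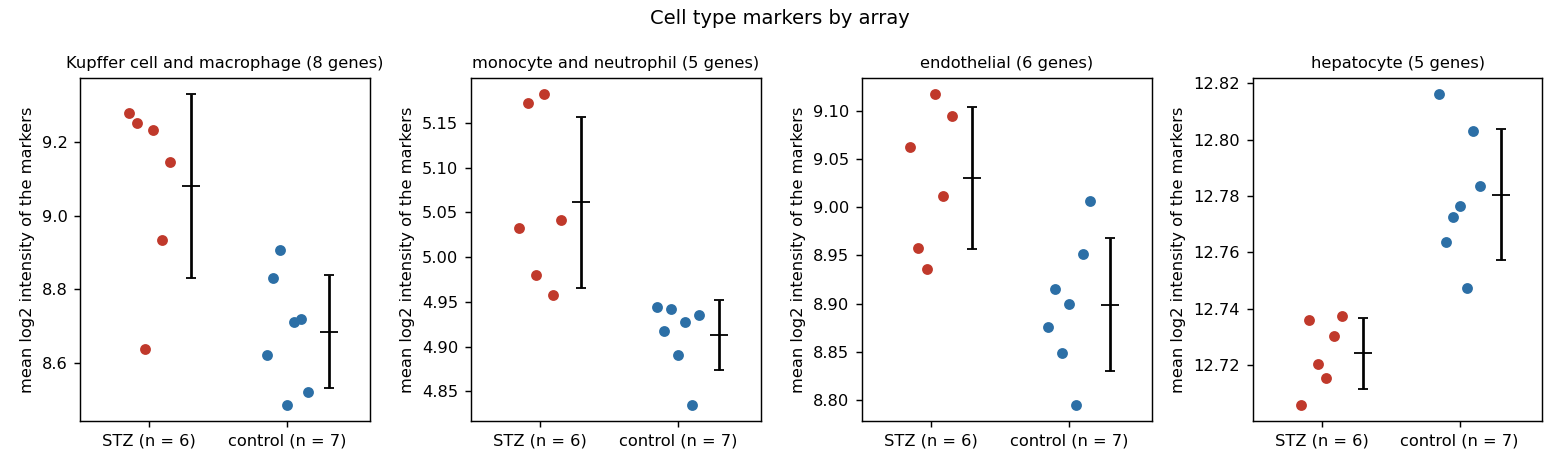
Mean log2 intensity of the measured markers of 4 cell types in each array (points, 6 STZ and 7 control), with the mean ± SD of each group beside it, and vertical scales that do not start at 0. The Kupffer cell and macrophage mean was 8.64 to 9.28 in STZ arrays and 8.49 to 8.91 in control arrays, and the hepatocyte mean 12.71 to 12.74 in STZ arrays and 12.75 to 12.82 in control arrays.

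Peroxidases depend on enzymes that return them to the reduced state. Of 17 measured genes of the thioredoxin and glutathione systems, 5 were higher and 1 lower, with a median of 0.09. Sesn2, a sestrin induced under stress, had a lowest of 7.46, a median of 7.69 and a highest of 7.98 in STZ livers, against 6.63, 6.79 and 6.89 in control livers. The difference was 0.89 ± 0.08 (adjusted p = 3.90e-06 in limma), and the groups did not overlap. Srxn1, sulfiredoxin, which restores overoxidised peroxiredoxins, had a lowest of 9.29, a median of 9.67 and a highest of 10.27 in STZ livers, against 8.78, 9.00 and 9.25 in control livers. It was higher by 0.74 ± 0.12 (adjusted p = 0.00117), again without overlap. Glutathione synthetase Gss (0.67 ± 0.07), glutaredoxin Glrx (0.51 ± 0.09) and glutathione reductase Gsr (0.35 ± 0.08) were the other higher genes. Txnrd3, a thioredoxin reductase known mainly from testis, was the lower one (-0.33 ± 0.09), and the count of lower genes was 0 in 6 of the 23 alternatives, among them those without STZ replicate 2, 4 or 6 or control replicate 1, and 2 without control replicate 2. The cytosolic thioredoxin reductase Txnrd1 (0.25 ± 0.08, adjusted p = 0.0616), the thioredoxins Txn1 (-0.02 ± 0.05) and Txn2 (0.09 ± 0.06), and the subunits of the rate-limiting enzyme of glutathione synthesis, Gclc (0.11 ± 0.11) and Gclm (0.08 ± 0.05), did not pass.

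Of 7 other glutathione peroxidases and peroxiredoxins 0 passed in limma, with 2 at an unadjusted p under 0.05 and 0 in the exact rank-sum test. In 3 of the 23 alternatives 1 of them passed as lower: without STZ replicate 5, without control replicate 2, and with only the STZ arrays labelled 29 to 32. Which gene this was is not identified here. The smallest p belonged to Gpx2, the epithelial glutathione peroxidase (0.32 ± 0.13, adjusted p = 0.145 in limma), which lay under the median gene. Prdx4, the other gene with an unadjusted p under 0.05, had a negative difference (-0.29 ± 0.13, adjusted p = 0.186 in limma). Of 18 measured genes of copper, manganese and selenium supply, 1 was higher, the selenocysteine elongation factor Eefsec (0.25 ± 0.07, adjusted p = 0.0354 in limma). Eefsec failed the threshold in 9 of the 13 fits with an array omitted and in 4 of the 10 other alternatives. No gene of this list was lower, against 1 in 6 of the 23 alternatives, among them those without STZ replicate 3, STZ replicate 5 or control replicate 2. Ccs, the chaperone that loads copper into Sod1, was 0.03 ± 0.11, and Selenop, the selenium carrier of plasma made by liver, was 0.12 ± 0.04 with an adjusted p of 0.0931. Neither passed in limma. All 6 STZ values of Selenop lay above all controls, by a gap of 0.04, as did those of 2.30% of all genes by any gap.

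Of 12 measured genes that supply NADPH, the electron donor of both systems, 4 were higher and 2 lower, with a median of 0.03. Mitochondrial Idh2 (0.64 ± 0.09) and Me2 (0.40 ± 0.09), a malic enzyme that uses NAD or NADP, were higher. Cytosolic Me1 (-1.95 ± 0.29) and Idh1 (-0.37 ± 0.06) were lower. The other higher genes were Nnt (0.20 ± 0.05), the NADPH-forming transhydrogenase of the inner mitochondrial membrane, and Aldh1l1 (0.21 ± 0.05), a folate enzyme of the cytosol. Idh2 had a lowest of 10.68 and a highest of 11.28 in STZ livers, against 10.09 and 10.50 in control livers, without overlap.

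**Figure D4:**
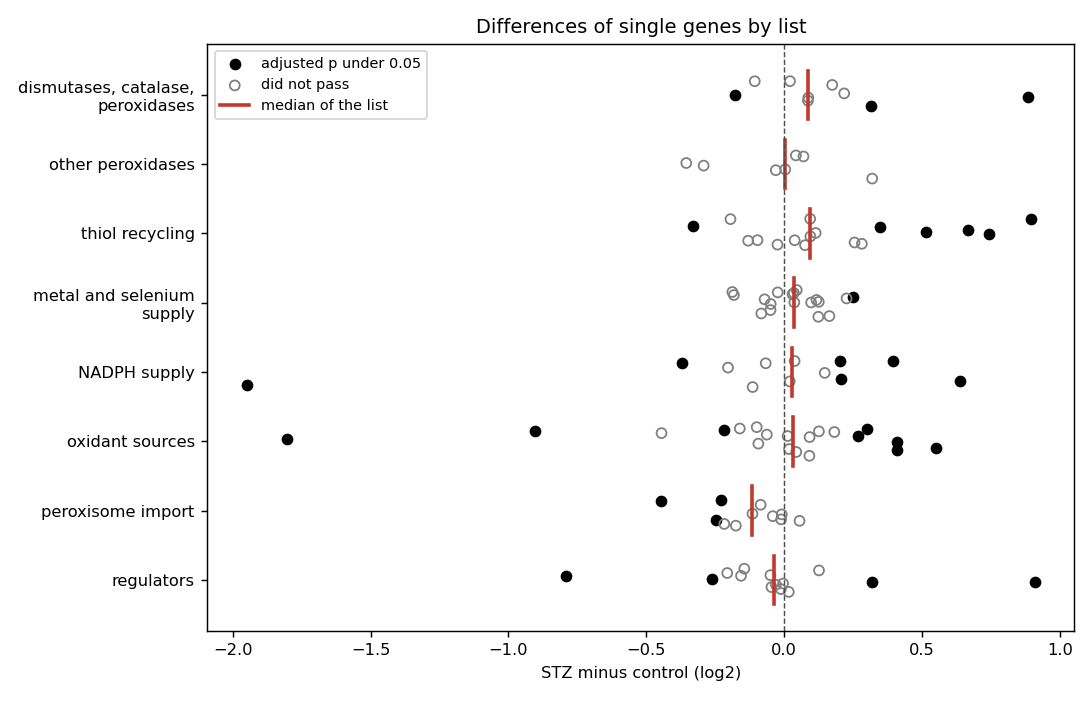
Difference of every measured gene, STZ minus control on the log2 scale (horizontal axis), by list. Filled points had an adjusted p under 0.05 in the limma fit, open points did not, and the red line is the median of the list. Thiol recycling had 5 higher and 1 lower genes of 17, and peroxisome import 0 higher and 3 lower of 11.

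Enzymes that make superoxide or hydrogen peroxide went both ways, with 5 of 20 measured genes higher and 3 lower, and a median of 0.03. Hao1, the peroxisomal glycolate oxidase, had a lowest of 7.26, a median of 8.50 and a highest of 9.92 in STZ livers, against 9.88, 10.38 and 10.47 in control livers. It was lower by 1.80 on the log2 scale (-1.80 ± 0.28, adjusted p = 0.000680 in limma), and 5 of 6 STZ arrays lay below all controls. Nox4, an NADPH oxidase that releases hydrogen peroxide, was lower in STZ livers (-0.90 ± 0.13, adjusted p = 0.000361), with a lowest of 7.72, a median of 7.98 and a highest of 8.81, against 8.90, 8.96 and 9.24 in control livers. Cybb (0.55 ± 0.13) and Cyba (0.41 ± 0.09), the membrane subunits of the phagocyte NADPH oxidase, were higher, as were Xdh (0.41 ± 0.07), Acox2 (0.30 ± 0.08) and Maob (0.27 ± 0.06). Maoa was lower (-0.22 ± 0.06). Cybb and Cyba did not pass with the array numbers as a replicate block or in the exact rank-sum test (adjusted p = 0.122 for Cybb and 0.0874 for Cyba in the rank-sum test). Kupffer markers were also higher in STZ livers, as given above, and the part of macrophages in the Cybb and Cyba differences was not tested.

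Of 11 measured peroxins, the proteins that build peroxisomes and import catalase into them, 3 were lower and 0 higher, with a median of -0.12. These were Pex6 (-0.45 ± 0.06), Pex16 (-0.25 ± 0.05) and Pex3 (-0.23 ± 0.06). Pex3 did not pass with the replicate block or in the exact rank-sum test (adjusted p = 0.0628 in the rank-sum test). The import receptor Pex5 was -0.22 ± 0.08 and did not pass (adjusted p = 0.127 in limma). Of 14 measured transcription regulators of antioxidant genes, 2 were higher and 2 lower, with a median of -0.04. Nfe2l2, which encodes NRF2, had a lowest of 10.76, a median of 11.03 and a highest of 11.14 in STZ livers, against 10.39, 10.70 and 10.81 in control livers. It was higher by 0.32 ± 0.08 (adjusted p = 0.0130), with 5 of 6 STZ arrays above all controls, and did not pass in the exact rank-sum test (adjusted p = 0.0525). Its inhibitor Keap1 was 0.02 ± 0.05 and did not pass. The coactivator Ppargc1a (0.91 ± 0.17) was also higher, and Ppara (-0.79 ± 0.09), a nuclear receptor of peroxisomal genes, and Hif1a (-0.26 ± 0.06), the oxygen-regulated factor, were lower. Hif1a did not pass with the replicate block (adjusted p = 0.0527). Foxo1 (-0.00452 ± 0.131) and Foxo3 (-0.21 ± 0.07), known in other cells to drive Sod2 and Cat, did not pass.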

How the data were processed

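The authors deposited log2 intensities for 35556 probe sets. They were made with RMA (background correction, scaling of arrays to a common distribution, summary per probe set), and the submitters' processing notes name Affymetrix Expression Console 1.2. For the annotation version and genome build, the sources used here give none. The platform annotation gave 1 gene symbol for 21789 probe sets, several for 1621 and none for 12146, and the brightest probe set of a gene was kept (19938 genes, no filter on dim ones). STZ (6 arrays) and control (7) were taken from the titles and compared in limma 3.58.1 (R 4.3.3) with lmFit and eBayes, 2-sided, adjusted by Benjamini-Hochberg over all 19938 genes with a threshold of 0.05. Intervals are 95% intervals of that fit. The fit was tried on simulated data whose added differences were larger than those of Sod3 and Sod1. That trial does not show how often differences of their size are called. The labels call the arrays biological replicates, and their number limits the precision.

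The genes and lists were chosen with earlier results of these data known. Named were all 9 measured genes, and in each related list up to 4 genes that passed, by absolute difference, or the gene with the smallest p. Further genes (Prdx4, Gsr, Txnrd1, Txnrd3, Txn1, Txn2, Gclc, Gclm, Ccs, Selenop, Nnt, Aldh1l1, Xdh, Acox2, Maob, Maoa, Pex5, Keap1, Foxo1, Foxo3 and the cell type markers) were named after their values were seen. Motifs were also chosen then. Promoter windows are those of RefSeq, GRCm38.p6. Array numbers of the titles were checked for pairing by the correlation of same-numbered deviations from the group means (-0.09 to 0.19 over 6 pairs), and the arrays were not treated as paired. Alternatives were other variance models, array weights, a brightness filter, other scalings and probe set rules, a rank test, a replicate block, the 4 STZ arrays labelled 29 to 32, and leaving out each array. The arrays labelled 29 to 32 are STZ replicates 1 to 4. STZ replicates 5 and 6 are labelled 40 and 42, and control replicates 1 to 7 are labelled 1 to 7.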

Additional observations from a re-analysis of the deposited data

Results flagged for a closer look

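In 30 genes (the 9 measured genes and 21 named genes of the related lists) the highest and the lowest array of each group were checked for a gap to the nearest array that is large against the range of the group. Of 60 groups 4 stood out, where chance gives about 1 in 20. All 4 were control replicate 2 as the lowest control: Gpx4 at 10.068 (nearest control 10.363), Prdx1 at 12.269 (nearest 12.50), Prdx3 at 10.47 (nearest 10.828) and Hao1 at 9.875 (nearest 10.335). The cause was not tested.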

How the results depend on the processing

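Under 23 alternatives the 9 measured genes kept direction and side of the threshold in 190 of 207 fits. The count of higher genes was 2 and became 1 with quantile normalization, with only the STZ arrays labelled 29 to 32 (Sod3 lost in each) and in the exact rank-sum test (Gpx4 alone), and 1 to 2 when arrays were left out. The lower gene, Sod1, was lost with the replicate block (count 0, adjusted p = 0.0923 in limma). The block pairs arrays of the same number, and no label says what such arrays share. Genes without overlap were 1, against 0 with the mean of all probe sets, 3 with the STZ arrays labelled 29 to 32, and 1 to 2 when arrays were left out. Sod2 was -0.0015 without control replicate 2, which reversed it, and up to 0.0375 without another array. All genes that passed were 1819, against 1088 in the rank-sum test and 1256 with the block. Higher oxidant sources were 5, against 2 in the rank-sum test and 1 with the block, and higher NADPH genes 4, against 2 with the block. Higher regulators were 2, against 1 in the rank-sum test, and lower ones 2, against 1 with the block. Lower peroxins were 3, against 2 in the rank-sum test and with the block, and 4 with only the STZ arrays labelled 29 to 32 and without control replicate 2. Lower genes among the other peroxidases were 0, against 1 with those STZ arrays and without STZ replicate 5 or control replicate 2. In the metal and selenium list the higher count of 1 became 0 or 2, and the lower count of 0 became 1 with array weights, the brightness filter and quantile normalization and without STZ replicate 3, STZ replicate 5 or control replicate 2. In thiol recycling the lower count of 1 became 0 or 2. Causes were not tested. Arrays compress differences of dim and of very bright genes.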

Other observations

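Markers of the remaining cell types that a liver sample can hold were counted as well. Of 7 stellate cell and fibroblast markers, Dcn (0.35 ± 0.06) was higher and Lrat (-0.47 ± 0.08), the enzyme that stores vitamin A in stellate cells, was lower in limma (adjusted p = 0.00182 and 0.00138). Of 4 bile duct markers 0 passed, with 1 at an unadjusted p under 0.05. Of 7 lymphocyte markers 1 was lower, the B cell gene Cd79b (-0.40 ± 0.10, adjusted p = 0.0200). Of 4 pancreas markers 0 passed, with 1 at an unadjusted p under 0.05.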
